A study of Mus musculus with 2 samples.

Results

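The NK gene complex is a stretch of mouse chromosome 6 in which genes of C-type lectin-like receptors of natural killer (NK) cells lie side by side. Runx3 peaks were assigned to it when their midpoint fell in chr6:128500001-131300000 (mm9), an interval that runs from the Klrb1 genes over Cd69, Klrd1 and Klrk1 to the Klra genes. The interval held 66 of the 1004 Runx3 peaks on chromosome 6 and of the 19647 peaks in the whole list. Position alone chose the peaks. They were not placed on single genes, because the gene table used here is built on GRCm38.p6 and the peaks on mm9. The end of the interval with the lower coordinates is called the Klrb1 end below, and the other the Klra end.

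The peaks come from 1 chromatin immunoprecipitation sequencing (ChIP-seq) library made with a home-made polyclonal antibody against Runx3. The cells were splenic NK cells of wild-type mice of the outbred strain ICR. The mice had received IL-15 complexed with IL-15Ra in 2 injections given 2 days apart, and 40000000 NK cells were purified by negative selection with a kit and then sorted as NKp46+ cells. A control library from cells of the same source was made with non-immune rabbit serum, and its values were not analysed here. The number, age and sex of the mice were not given in the sources used here. With 1 library per antibody there was no replicate, so all values below are descriptions of 1 peak list with no test, and intervals cover counting error only.

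NK cells decide between killing and sparing a target by adding up signals from activating and inhibitory receptors. The complex encodes many of these receptors and some of their ligands. Klrb1c encodes NK1.1, an activating receptor of the NKR-P1 group, and Klrb1b encodes an inhibitory one that binds the product of Clec2d. Cd69 encodes an early activation marker of lymphocytes. Klrd1 encodes CD94, which pairs with NKG2 proteins such as the inhibitory product of Klrc1, and Klrk1 encodes the activating receptor NKG2D. Klre1 encodes a further lectin-like receptor of NK cells. The Klra genes encode the Ly49 receptors, most of which bind MHC class I molecules: the products of Klra1 (Ly49A) and Klra7 (Ly49G) are inhibitory, and that of Klra8 (Ly49H) is activating and recognises a protein of mouse cytomegalovirus. Runx3 is a Runt-domain transcription factor of NK cells and cytotoxic T cells whose family binds TGTGGT and TGCGGT.

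Reference promoter sequence was used to show what the start regions of these genes hold, independently of the peaks. The RefSeq gene table (GRCm38.p6) held 43 genes of the complex on a list of receptor families. NKR-P1 and Clec2 genes came first, then lectin-like genes of myeloid and other cells. Klre1, the CD94 and NKG2 genes, Klri1, Klri2 and Klrh1 followed, then the Ly49 genes, with Klra2 last. From Klrb1a to Klra2 the gene table held 48 protein-coding genes, of which 39 were on the list. Promoter windows of 300 bases (250 before and 50 after the start) were found for 34 of the 43 listed genes. Cd69 and Klrd1 were among the 9 without one. TGTGGT or TGCGGT stood on either strand in a window of 9 of the 34 genes (26.5%, exact 95% interval 12.9 to 44.4%), beside 25.0% of the 27025 genes in the promoter table. This share is near the background and is no result about the listed genes. Every match in the listed genes was TGTGGT, which alone occurred in 18.9% of all genes, a share within the interval of the listed genes.

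By family, the matches occurred in 4 of 4 CD94 and NKG2 genes (Klrk1, Klrc1, Klrc2, Klrc3) and 2 of 5 NKR-P1 genes (Klrb1a and Klrb1c). They also occurred in 1 of 3 genes of the KLRE, KLRI and KLRH group (Klre1) and 1 of 11 Ly49 genes (Klra1). Among lectin-like genes of myeloid and other cells 1 of 6 had a match (Clec12a), and among Clec2 genes 0 of 5. The families are small, and no difference between them was tested. Klrb1b, Klra7 and Klra8 had no match in their windows. The stretches around the matches in the receptor genes are printed here to let the contexts be compared. Each reads 5′ to 3′ on the strand of its gene and ends before the start, and capitals mark TGTGGT or its reverse complement.
Klrb1a, GRCm38.p6 chr6:128623025-128623090, minus strand: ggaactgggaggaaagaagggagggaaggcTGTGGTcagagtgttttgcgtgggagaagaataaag
Klrb1c, GRCm38.p6 chr6:128788695-128788760, minus strand: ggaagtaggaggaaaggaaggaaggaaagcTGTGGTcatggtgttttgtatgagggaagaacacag
Klre1, GRCm38.p6 chr6:129577963-129578019, plus strand: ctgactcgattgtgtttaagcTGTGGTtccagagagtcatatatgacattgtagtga
Klrk1, GRCm38.p6 chr6:129623958-129624023, minus strand: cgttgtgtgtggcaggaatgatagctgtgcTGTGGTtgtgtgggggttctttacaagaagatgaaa
Klrc3, GRCm38.p6 chr6:129643329-129643394, minus strand: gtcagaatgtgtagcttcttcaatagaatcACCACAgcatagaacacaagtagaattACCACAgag
Klrc2, GRCm38.p6 chr6:129660597-129660662, minus strand: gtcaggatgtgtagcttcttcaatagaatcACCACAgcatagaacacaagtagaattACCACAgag
Klrc1, GRCm38.p6 chr6:129679025-129679090, minus strand: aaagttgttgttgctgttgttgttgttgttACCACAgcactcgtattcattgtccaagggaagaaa
Klra1, GRCm38.p6 chr6:130387040-130387105, minus strand: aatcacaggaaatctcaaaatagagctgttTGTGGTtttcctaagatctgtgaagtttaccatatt

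Klrc2 and Klrc3 each held a pair of matches in nearly the same context, and the contexts in Klrb1a and Klrb1c also resembled each other, so neither pair of genes gives independent examples. These GRCm38.p6 positions cannot be set beside the mm9 positions of the peaks, and a match is not evidence of binding.

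The NK gene complex was among the parts of chromosome 6 richest in Runx3 peaks. Its 66 peaks in 2.8 Mb came to 23.6 per Mb, 3.60 times the 6.55 per Mb of the rest of the chromosome. It took up 1.92% of the span between the first and the last peak of chromosome 6 and held 6.57% of the peaks. Of 50 other windows of 2.8 Mb laid side by side from its borders, 0 held as many peaks. Their median was 14 and their highest count 56, in the window from 86500001 to 89300000. The next counts were 50, 47 and 46 peaks. The first rank rested on where windows began: when windows were slid in steps of 100 kb, 2 of 1377 that did not overlap the complex held as many peaks or more, with 67 peaks in that from 86300001 to 89100000.

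**Figure D1:**
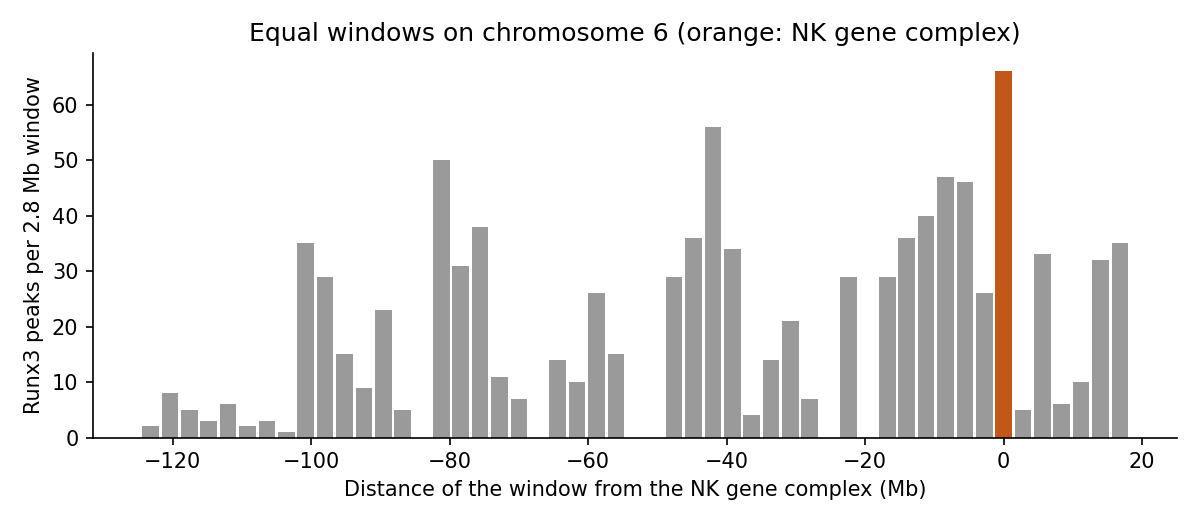
Number of Runx3 peaks (vertical axis) in 51 windows of 2.8 Mb on chromosome 6, placed by their distance from the NK gene complex in Mb (horizontal axis); the orange bar is the complex. The complex holds 66 peaks, the window before it 26 and the window after it 5.

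The windows on either side held fewer peaks, 26 before the complex and 5 after it. The nearest peak outside the interval on the Klrb1 side had its midpoint 6.48 kb from the border (chr6:128493224-128493823, 600 bp wide), and the nearest on the Klra side 3.63 kb (chr6:131303213-131304045, 833 bp). The first peak inside the interval lay 57.4 kb from the border (chr6:128557156-128557723, 568 bp) and the last 56.8 kb (chr6:131242996-131243441, 446 bp). Over all chromosomes, 45 of 899 other windows of this size held more peaks than the complex and 1 held as many, up to 159 peaks, and the median was 15.

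Peaks were concentrated towards the Klrb1 end. In 4 consecutive blocks of 700 kb, counted from the Klrb1 end, there were 35, 20, 8 and 3 peaks. Blocks 1 and 2 together held 55 of the 66 peaks (83.3%), and the median midpoint lay 686.3 kb from the Klrb1 end. Among 203 other windows of 700 kb on chromosome 6, which had a median of 1 peak, 0 held as many as block 1. Slid in steps of 100 kb, 2 of 1419 such windows outside the complex did, with up to 36 peaks. Block 2 was exceeded by 8 of the 203, block 3 by 42 and block 4 by 79. In blocks of 400 kb the counts ran 26, 12, 14, 7, 4, 0 and 3, so the decline towards the Klra end was not even. The mice were outbred ICR, and whether their reads aligned equally well to mm9 all along the complex was not tested.

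**Figure D2:**
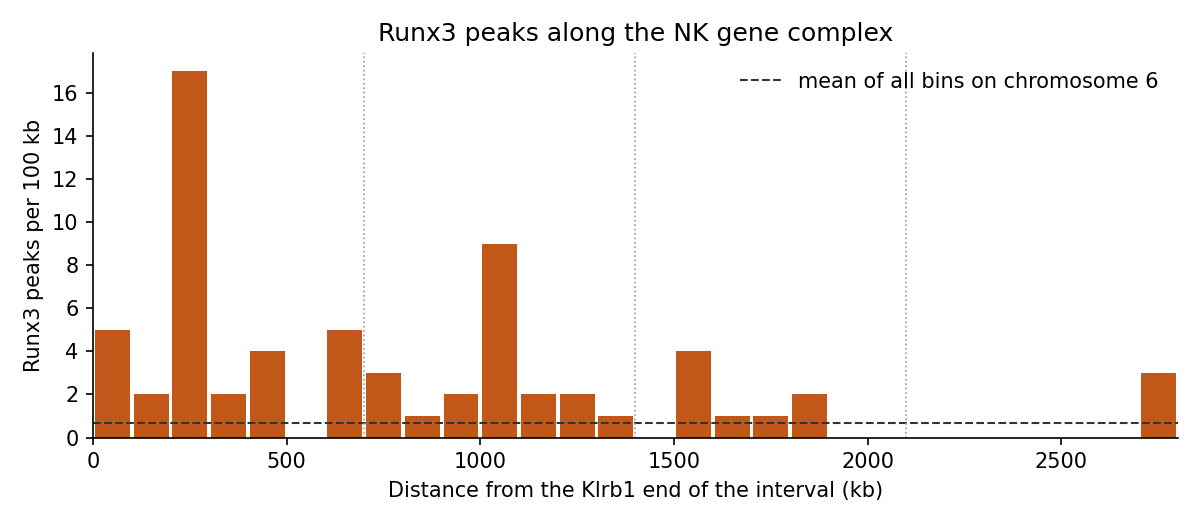
Runx3 peaks in each of the 28 bins of 100 kb (vertical axis) against distance from the Klrb1 end of the interval in kb (horizontal axis), with dotted lines between the 4 blocks of 700 kb and a dashed line at the mean of all bins on chromosome 6, 0.687 peaks. The bin from 200 to 300 kb holds 17 peaks, and 8 bins in a row from 1900 to 2700 kb hold 0.

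By bins of 100 kb the complex averaged 2.36 peaks, with a median of 1.5, beside a mean of 0.687 on chromosome 6. A bin held 3 or more peaks in 8 of 28 cases (28.6%, exact 95% interval 13.2 to 48.7%), and 8.49% of the 1461 bins of chromosome 6 did so. A bin was empty in 10 of 28 cases (35.7%, 18.6 to 55.9%), and 70.4% of the bins of chromosome 6 were empty. Neighbouring bins are not independent, so these intervals are too narrow.

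From the Klrb1 end onwards, bins 1 to 7 held 5, 2, 17, 2, 4, 0 and 5 peaks. Bins 8 to 14 held 3, 1, 2, 9, 2, 2 and 1, and bins 15 to 21 held 0, 4, 1, 1, 2, 0 and 0. Bins 22 to 27 were empty, and bin 28 held 3. The profile thus had 2 high points, bin 3 (chr6:128700001-128800000) with 17 peaks and bin 11 (chr6:129500001-129600000) with 9.

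Bin 3 was the fullest of all 1461 bins on chromosome 6. Its peaks covered 10447 bp, or 10.4% of the bin, whereas peaks covered 1.32% of the whole complex and 0.460% of the span of chromosome 6. Together with bin 11 and 1 of the 2 bins with 5 peaks it held 31 of the 66 peaks (47.0%). Without bin 3 the complex would hold 49 peaks, a count that 2 of the 50 other windows exceeded (4%).

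Taken over the whole complex, neighbouring peaks lay closer together than elsewhere on the chromosome. The median distance between midpoints was 8.32 kb over 65 neighbouring pairs (exact binomial 95% interval of the median 4.40 to 21.0 kb), and 30.3 kb over 936 pairs on chromosome 6 outside it (24.5 to 34.8 kb). Neighbours were at most 10 kb apart in 33 of 65 pairs (50.8%, 38.1 to 63.4%). The share was 30.9% of the 1003 pairs on the whole of chromosome 6 and 29.6% (26.7 to 32.6%) outside the complex. At most 5 kb lay between 28 pairs (43.1%) in the complex and 19.4% outside. Spacing differed along the complex. In blocks 1 to 4 the median distance was 3.83, 10.7, 33.7 and 15.5 kb, over 34, 19, 7 and 2 pairs. Block 3 was thus not more closely spaced than the rest of the chromosome, and block 4 had too few pairs to say. Of the 22 other windows of 2.8 Mb with at least 20 peaks, 0 had a shorter median distance, the shortest being 10.6 kb, and 0 had a higher share within 10 kb, the highest being 46.4%. Windows with more peaks have closer peaks by their number alone, so spacing and count are not separate results.

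**Figure D3:**
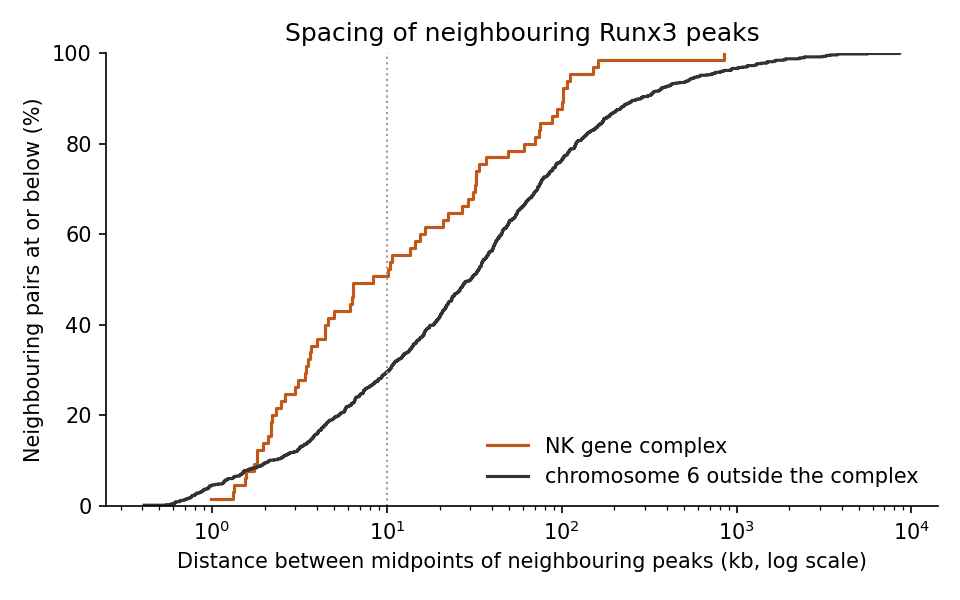
Share of neighbouring pairs of Runx3 peaks (vertical axis, %) at or below a given distance between midpoints (horizontal axis, kb, log scale), for the 65 pairs of the NK gene complex and 936 pairs on chromosome 6 outside it; the dotted line marks 10 kb. At 10 kb the complex stands at 50.8% and the rest of the chromosome at 29.6%.

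Chaining neighbours at most 10 kb apart gave 15 stretches of 2 or more peaks and left 18 single peaks (27.3%), whereas 51.2% of the peaks of chromosome 6 were single. Stretches of 3 or more numbered 7 and held 32 of the 66 peaks (48.5%, 36.0 to 61.1%), beside 26.3% of the peaks of chromosome 6. Peaks of 1 stretch are not independent, so this interval is too narrow. The share in stretches also rises with the density of peaks, so it is not a result separate from the count. Of the 16 stretches of 5 or more peaks on chromosome 6, 3 lay in the complex. The largest had 8 peaks, a size that 1 other stretch on the chromosome reached and 0 exceeded. Of the 7 stretches, 6 lay in block 1 and 1 in block 2.

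The largest stretch ran over 19.6 kb, chr6:128733964-128753581, in bin 3. Its 8 peaks started at 128733964, 128738376, 128740588, 128742887, 128746183, 128748166, 128749391 and 128752939. Their widths in the same order were 497, 556, 495, 523, 791, 452, 650 and 643 bp. Peaks covered 23.5% of this stretch, and the median step between midpoints was 2.31 kb.

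Bin 3 also held a stretch of 3 peaks before it, chr6:128710611-128719892, with starts at 128710611, 128716791 and 128719496 and widths of 683, 587 and 397 bp. After it followed a stretch of 5 peaks that began in bin 3 and ended in bin 4, chr6:128786230-128802115. Its peaks started at 128786230, 128789398, 128792737, 128795185 and 128801686, with widths of 756, 587, 1226, 655 and 430 bp. The peak of 1226 bp (chr6:128792737-128793962) was the widest of the complex.

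Nearest to the Klrb1 end, 4 peaks lay within 4.93 kb, chr6:128570806-128575732, the tightest of the 7 stretches. They started at 128570806, 128572718, 128574302 and 128575320 and measured 477, 561, 469 and 413 bp, all below the median of the whole list. Peaks covered 39.0% of this stretch.

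Further along block 1, 3 peaks started at 128986480, 128995029 and 128998963, with widths of 923, 466 and 610 bp (chr6:128986480-128999572). At its far end 4 peaks started at 129182841, 129184357, 129187833 and 129192476, with widths of 483, 588, 430 and 405 bp (chr6:129182841-129192880). The stretch of block 2, chr6:129531813-129548415, accounted for 5 of the 9 peaks of bin 11. Its peaks started at 129531813, 129536710, 129539321, 129541506 and 129547881 and measured 540, 685, 447, 476 and 535 bp. In blocks 3 and 4, 0 stretches reached 3 peaks, and the closest peaks there were 2 pairs, at chr6:130017620-130021166 and chr6:131211977-131214306.

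The longest part of the complex without a peak lay towards the Klra end. It measured 842.3 kb, chr6:130369685-131211976, and thus took up most of block 4. On chromosome 6, 38 of 1003 gaps between neighbours (3.79%) were as long or longer. The next gaps in the complex measured 160.8 kb (chr6:128999573-129160373, in block 1) and 149.6 kb (chr6:129867975-130017619, across the border of blocks 2 and 3). Gaps as long as these made up 15.2% and 16.3% of those on chromosome 6. The last 3 peaks of the complex lay beyond the longest gap, within 31.5 kb of each other. In the GRCm38.p6 gene table, 15 entries outside the list, 5 of them protein coding, lay between Klra1 and Klra2, the last listed gene. Gaps were not placed on genes, so it is not known which genes the longest gap holds.

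Peaks in the complex were narrower than in the rest of the list. Their median width was 535 bp (exact binomial 95% interval 497 to 568 bp), with quartiles at 461.5 and 640.2 bp. The median was 597.5 bp (583 to 614 bp) on chromosome 6 and 604 bp in the whole list. Only 19 of the 66 peaks (28.8%) reached the median of the list. Peaks under 500 bp made up 25 of 66 (37.9%, 26.2 to 50.7%), beside 22.0% on chromosome 6. Wider than 1000 bp was 1 of 66 (1.52%, 0.0384 to 8.16%), beside 9.36% on chromosome 6.

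**Figure D4:**
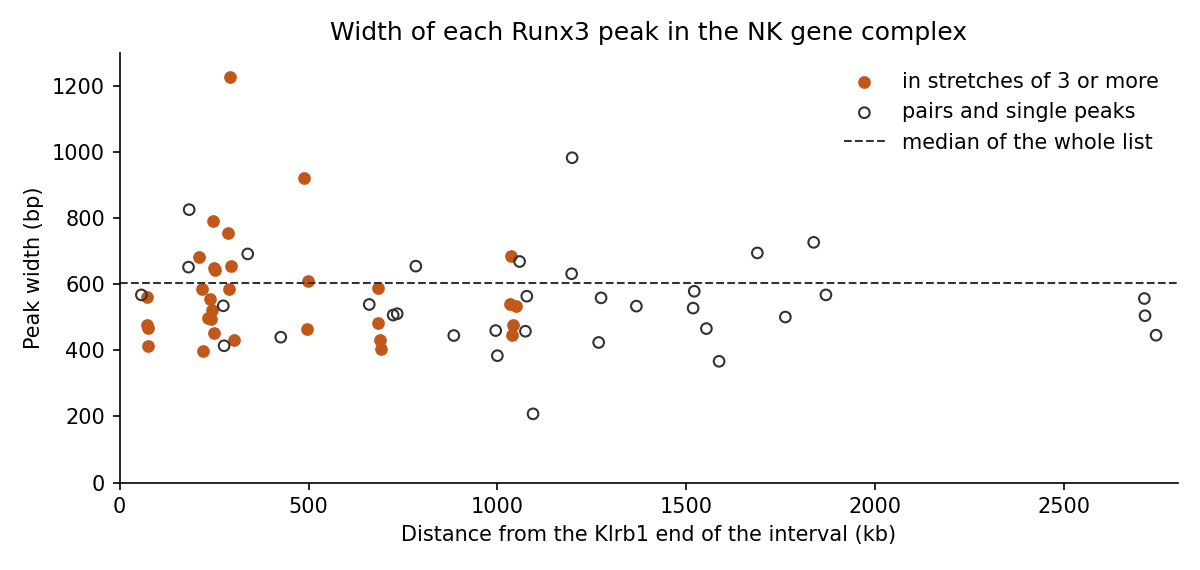
Width of each of the 66 Runx3 peaks in bp (vertical axis) against distance from the Klrb1 end of the interval in kb (horizontal axis); filled orange points are peaks in stretches of 3 or more, open points are pairs and single peaks, and the dashed line is the median of the whole list, 604 bp. Most points, 47 of 66, lie below the line, along the whole interval.

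Among the windows laid from its borders, the complex combined the highest count of peaks with a low median width. Low medians were not particular to it. On the Klra side the window next to it had a median of 736 bp, and those beyond had 550, 533, 538, 556.5 and 568 bp. The windows with 550, 556.5 and 568 bp held 33, 32 and 35 peaks. Of 44 other windows of 2.8 Mb with a peak, 40 had a higher median width, and of the 22 with at least 20 peaks, 21 did. The 4 windows next in number of peaks, with 56, 50, 47 and 46, had median widths of 675.5, 604, 641 and 600.5 bp. Because its peaks were narrow, the complex ranked second by base pairs covered, with 37034 bp, behind the window with 56 peaks, which had 39211 bp. Counting only peaks at or above the list's median width, it held 19, and 16.3% of the other windows within the span of those peaks held as many or more.

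Median widths were below the list's 604 bp for each kind of spacing and in both parts of the complex. The median was 537.5 bp (476 to 610 bp) for the 32 peaks in stretches of 3 or more and 546 bp (458 to 632 bp) for the 16 in pairs. For the 18 single peaks it was 522.5 bp (446 to 655 bp). These intervals overlapped and all included 604 bp. The median was 535 bp (483 to 587 bp) for the 55 peaks of blocks 1 and 2 and 528 bp (446 to 695 bp) for the 11 of blocks 3 and 4. Some bins of 1 or 2 peaks had medians above 604 bp. The height of the peaks is not in the list, so it cannot be said whether narrow peaks were also weak ones.

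After the peak of 1226 bp, the widest peaks of the complex measured 983 bp (chr6:129697153-129698135), 923 bp (chr6:128986480-128987402), 826 bp (chr6:128683566-128684391) and 791 bp (chr6:128746183-128746973). Each of these 5 had another peak within 8.32 kb. The narrowest, 208 bp (chr6:129594087-129594294, in bin 11), was also the narrowest of all 1004 peaks on chromosome 6. Gaps between the ends of neighbouring peaks were under 1000 bp for 4 of 65 pairs (6.15%) in the complex and 8.08% on chromosome 6, and the smallest in the complex was 524 bp.

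The receptor families arose by gene duplication, and the reads were 50 bases long, so the identity of promoters over that length was measured in the reference sequence. At least 1 stretch of 50 bases was shared with a promoter of another gene by 10 of the 34 genes (29.4%), beside 19.1% of all genes in the promoter table. This difference was not tested. Only promoter windows were compared, so sharing with the rest of the genome is unknown. The share of the 251 stretches of a window that was not unique among promoters was 60.6% for Klrc3 and 44.6% for Klrc2, which shared them with each other. It was 28.7% each for Clec2h and Clec2e, again with each other, and 45.0% for Klra9, where 26 of 113 shared stretches had a partner among the Ly49 genes and Gm52487 was another partner. Of the 11 Ly49 genes with a window, 5 shared a stretch (Klra3, Klra5, Klra6, Klra9 and Klra10). Klra5 and Klra6 shared only 4 and 6 of their 251 stretches. Klra10 had no partner among the listed Ly49 genes, and Clec2g none among the listed Clec2 genes. Klra1, Klra7 and Klra8 shared 0, as did the 5 NKR-P1 genes, Klrk1, Klrc1 and Klre1. The treatment of reads that match several places was not given in the sources used here, and a part of shared sequence in the distribution of peaks was not tested.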

How the data were processed

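ChIP-seq was done on splenic NK cells, with 1 library for Runx3 and 1 for non-immune serum. Per the labels' protocols, chromatin was fixed in 1% formaldehyde, sheared to about 200 bp and sequenced in reads of 50 bp, which ELAND aligned. The build mm9 and CASAVA 1.8.2 come from the submitters' processing notes. The peak caller, its threshold, the use of the control and whether the list is complete were not given in the sources used here. In the list deposited by the authors, each peak has a chromosome, a start and an end and nothing else. Starts count from 0 and are printed counted from 1. Read depth is unknown.

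Peaks with midpoints in the interval were counted, binned by 100 kb and chained at 10 kb with Python 3.11.15, numpy 2.4.6 and scipy 1.17.1. These measures were checked on 20 made lists. Equal windows were laid from the borders of the interval within the span of the chromosome's peaks. Shares have exact (Clopper-Pearson) 95% intervals, which treat peaks as independent. Promoters come from RefSeq (GRCm38.p6), the first window of a gene being used for shared stretches. The interval, gene lists and measures were chosen with earlier results of these data known. Peaks printed with positions are the 5 widest, the narrowest, those of stretches of 3 or more, those at the borders and those bounding the 3 longest gaps.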

Additional observations from a re-analysis of the deposited data

How the results depend on the processing

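The 8 results were recomputed under joined, wider or differently binned peaks, other distances, other borders and other motifs, and 40 of 50 values stayed within their counting interval or within 1.5 times of the count. For the rank among windows this interval ran from 0 to 7.11%. Values of 0.145%, 2%, 4% and 5.12% therefore counted as unmoved, although the complex was not first in them. Keeping the peaks at or above the list's median width, which removes most peaks of the complex by construction, left 19 peaks with a median width of 685 bp and a median distance of 30.2 kb. Then 33.3% of neighbours were within 10 kb, 31.6% of peaks lay in stretches of 3 or more and 67.9% of the bins were empty. Of the other windows within the span of the kept peaks, 16.3% held as many peaks or more. The first rank of the complex thus did not hold for wide peaks. On chromosome 6 keeping these wider peaks gave a median width of 770 bp and a median distance of 65.5 kb. It also gave 16.1% of neighbours within 10 kb and 12.2% of peaks in stretches. The share of bins of chromosome 6 left empty by these wider peaks is not given here. The 67.9% is not comparable with the 70.4% of chromosome 6 bins empty of any peak. The first rank did not hold either among windows slid in steps of 100 kb, of which 0.145% held as many peaks or more. By construction, a distance of 50 kb took in 78.5% of neighbours and bins of 50 kb were empty in 57.1% of cases. Chromosome 6 values for the distance and the bins of 50 kb are not given here. Also by construction fewer, TGTGGTT or TGCGGTT occurred in 8.82% of the listed genes, beside 7.77% of all genes. TGTGGT alone occurred in 26.5% of the listed and 18.9% of all genes. Windows over all chromosomes and the complex without its fullest bin were added after the data were seen, and gave 5.12% and 4% of other windows with as many peaks or more. No paired analysis was possible because there is 1 library for each antibody. Depth is unknown, so weak sites that were not listed cannot be counted.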
